A study of Bos taurus with 4 samples.

Results

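The genes described here encode costimulatory and inhibitory receptors on the T cell surface, CD28, ICOS, CD2, CD96, CD5, CD6, CD7 and CD83. They were taken by symbol from a named list, whose rule uses no measured value but which was drawn up with earlier results of these data known, and are 8 of the 9155 genes measured. The cells were bovine gamma delta T cells, taken from the blood of calves 1 to 6 months old, sorted to a purity of over 97% and rested overnight. They then received an aqueous apple polyphenol extract (APP, 42.2 µg/ml) or phosphate-buffered saline (PBS) for 4 h. Cells of 2 calves, numbered 301 and 303, were each divided between the treatments, which gave 2 APP arrays and 2 PBS arrays on an Affymetrix bovine platform. The series' own description calls the calves neonatal. The sources used here give neither the breed and sex of the calves nor the endotoxin content of the extract.

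A T cell reads antigen through its receptor and reads the context through accessory receptors of this kind. CD28 and ICOS are related members of the immunoglobulin superfamily that recruit phosphoinositide 3-kinase. CD2 is an adhesion receptor that binds CD58 in humans and CD48 in mice, and CD96 binds the poliovirus receptor family. CD5 and CD6 carry scavenger receptor cysteine-rich domains, the domain type of the WC1 coreceptors of ruminant gamma delta T cells, and damp or tune antigen receptor signals. CD7 binds SECTM1, and CD83 is a glycoprotein of activated lymphocytes and dendritic cells that stabilises MHC class II at the surface. In cattle, gamma delta T cells that carry WC1 mostly lack CD2, while those without WC1 mostly carry it.

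Values are log2 ratios of a gene to its own median over the 4 arrays, with several probe sets of a gene averaged. They show how a gene differs between arrays and not how abundant it is, so the receptors cannot be ranked by level. The presence of T cell markers could not be checked for the same reason. A change is APP minus PBS within a calf, on the log2 scale, and "rose" or "fell" is used where limma's test over all 9155 genes, with the calf as a block, gave an adjusted p under 0.05. In a bulk sample, more transcript per cell and more cells that carry the transcript cannot be told apart.

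Of the 8 receptor genes, CD83 and CD5 rose, CD7, ICOS and CD2 fell, and CD28, CD6 and CD96 did not pass the test. Over all genes 23% rose and 29.7% fell, so 2 rises and 3 falls among 8 lie near those shares. The median change was -0.03 over the receptor genes and 0.01 over all genes. The direction was the same in both calves for 7 of the 8, and across all genes the changes of the calves correlated at r = 0.93. The receptors thus moved in both directions. Scaling the arrays to hybridization controls, RNAs added at a fixed amount before hybridization, lowers every change by 0.85, so a rise smaller than that has the opposite sign on that scale, as the rise of CD5 does.

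CD83 had the largest change of the 8. Its log2 ratios were 1.64 and 0.67 on the APP arrays of calves 301 and 303, against -1.35 and -2.12 on their PBS arrays. Both APP arrays stood far above both PBS arrays. The change was 2.99 in calf 301 and 2.79 in calf 303, a mean of 2.89 ± 0.14 (SD, n = 2 calves) or 7.4-fold, with an adjusted p of 9.38e-06 in limma's test. By the size of the change CD83 ranked 29 of 9155 genes, and 27 among rises. Calf 303 stood below calf 301 under both treatments, by -0.97 with APP and -0.77 with PBS, so that the calves differed in where they began and little in how far they moved.

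CD5 rose by a smaller and very even amount. Its log2 ratios were 0.22 and 0.35 on the APP arrays of calves 301 and 303, against -0.38 and -0.30 on the PBS arrays. The groups did not overlap, and the calves lay close together within each treatment. The changes of 0.60 and 0.64 gave a mean of 0.62 ± 0.03 (SD, n = 2 calves), or 1.54-fold, with an adjusted p of 0.00155 in limma's test. On the scale of the hybridization controls the change of CD5 stood at -0.23, while the median of all genes was -0.84. In an unblocked fit without the PBS array of calf 301, CD5 missed the threshold (0.58, adjusted p = 0.054, limma).

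CD6 is the neighbour of CD5 in the genome, with no other protein-coding gene starting between them in the RefSeq annotation of the assembly ARS-UCD2.0. Its log2 ratios were -0.01 and 0.29 on the APP arrays of calves 301 and 303, against -0.03 and -0.30 on the PBS arrays. The APP arrays were above the PBS arrays by a margin of only the second decimal in calf 301, where the change was 0.02, and the change in calf 303 was 0.60. The mean of 0.31 ± 0.41 (SD, n = 2 calves) did not pass (adjusted p = 0.119 in limma's test, 95% interval -0.04 to 0.65). That interval includes 0 and also the change of CD5, so these arrays do not show whether the neighbours differed.

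**Figure D1:**
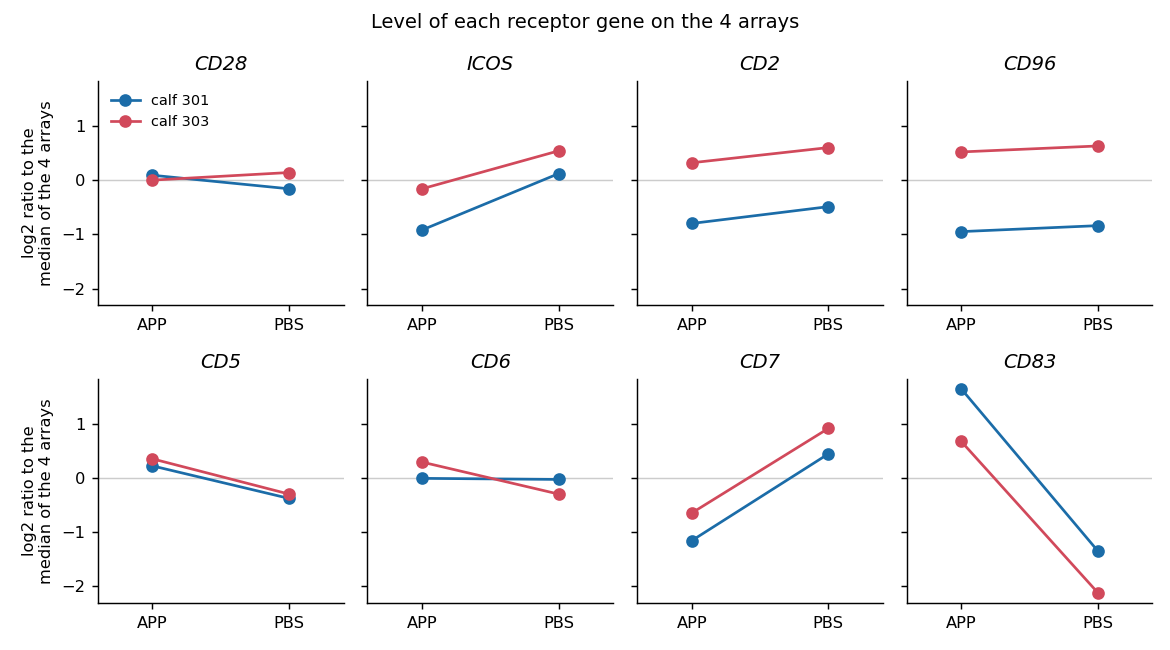
Log2 ratio of each of the 8 receptor genes to its own median over the 4 arrays (vertical axis), for APP and PBS (horizontal axis). Lines join the 2 arrays of a calf. CD83 and CD5 are higher with APP in both calves and CD7 and ICOS lower, while CD2 and CD96 are separated by calf, with calf 303 above calf 301.

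CD7 had the largest fall of the 8. Its log2 ratios were -1.16 and -0.65 on the APP arrays of calves 301 and 303, against 0.44 and 0.91 on the PBS arrays. Both APP arrays lay below both PBS arrays. The changes of -1.60 and -1.56 gave a mean of -1.58 ± 0.03 (SD, n = 2 calves), a 2.98-fold fall with an adjusted p of 3.41e-05 in limma's test, and CD7 ranked 175 among falls. CD7 and CD83 were the 2 receptor genes that changed at least 2-fold in both calves, where 3.5% of all genes rose and 6.29% fell by that much.

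ICOS, which in alpha beta T cells is known as a receptor that appears on activation, fell. Its log2 ratios were -0.92 and -0.16 on the APP arrays of calves 301 and 303, against 0.12 and 0.54 on the PBS arrays. The groups did not overlap, although the APP array of calf 303 came near the PBS array of calf 301. The changes of -1.04 and -0.70 gave a mean of -0.87 ± 0.24 (SD, n = 2 calves), or 1.83-fold, with an adjusted p of 0.000799 in limma's test. Without the replicate block the call was lost (adjusted p = 0.0622, limma), since calf 303 stood above calf 301 by 0.76 with APP and 0.41 with PBS. In such unblocked fits it was also lost when the calf 301 APP array was left out (-0.49, adjusted p = 0.136), without the PBS array of calf 301 (-1.08, adjusted p = 0.0612) and without the PBS array of calf 303 (-0.66, adjusted p = 0.205), all in limma's test.

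CD28, the relative of ICOS, had log2 ratios of 0.09 and 0.00 on the APP arrays of calves 301 and 303, against -0.16 and 0.14 on the PBS arrays. The APP arrays lay between the PBS arrays. Its change was 0.26 in calf 301 and -0.13 in calf 303, the only pair of opposite sign among the 8. The mean was 0.06 ± 0.28 (SD, n = 2 calves), with an adjusted p of 0.695 in limma's test and a 95% interval from -0.22 to 0.35. The interval of CD28 lies above that of ICOS (-1.14 to -0.60), a difference that was not tested itself.

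**Figure D2:**
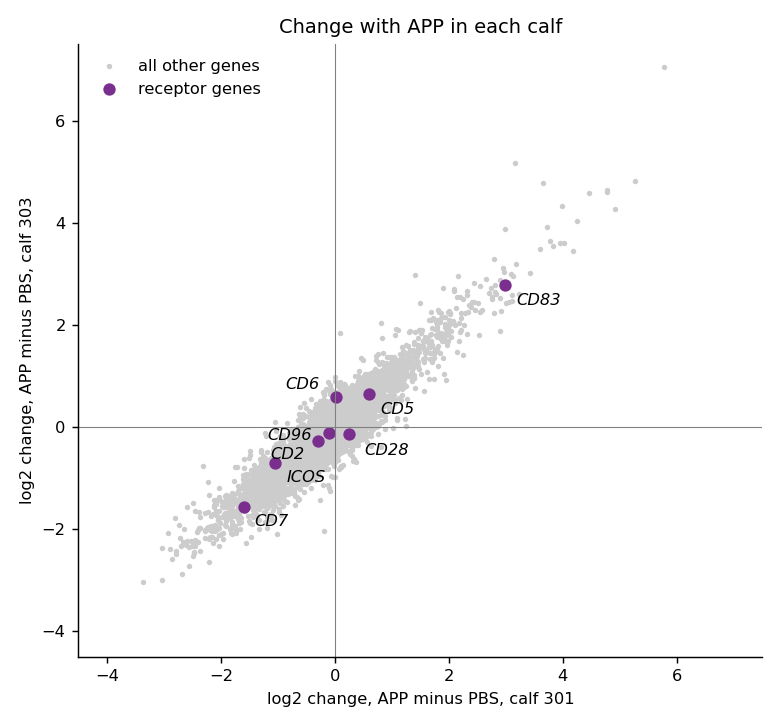
Log2 change with APP in calf 301 (horizontal axis) and in calf 303 (vertical axis) for the 8 receptor genes, over all other genes measured. CD83 lies with the large rises and CD7 and ICOS with the falls, and CD28 is the receptor gene whose changes have opposite signs, 0.26 and -0.13.

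CD2 and CD96 differed more between the calves than between the treatments. CD2 had log2 ratios of -0.80 and 0.32 on the APP arrays of calves 301 and 303, against -0.49 and 0.60 on the PBS arrays. The treatments overlapped, and within each calf the APP array was the lower one. The changes of -0.30 and -0.28 gave a mean of -0.29 ± 0.02 (SD, n = 2 calves), or 1.22-fold, with an adjusted p of 0.038 in limma's test with the block and of 0.67 without it. CD2 also missed the threshold after quantile normalization (-0.10, adjusted p = 0.382, limma) and on linear ratios (adjusted p = 0.075, limma). In unblocked fits the estimate was 0.27 without the APP array of calf 301 and 0.25 without the PBS array of calf 303, and it was -0.85 without the APP array of calf 303 and -0.83 without the PBS array of calf 301, none of which passed.

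CD96 had log2 ratios of -0.95 and 0.52 on the APP arrays of calves 301 and 303, against -0.84 and 0.63 on the PBS arrays. Within each calf the treatments were close together, with changes of -0.11 and -0.12. The mean of -0.11 did not pass (adjusted p = 0.347 in limma's test, 95% interval -0.34 to 0.11).

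Of the 8 genes, 5 had APP and PBS arrays that did not overlap, a pattern held by 73.8% of all genes. CD6 was 1 of these 5 without passing the test, and CD2 passed it with groups that overlapped.

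The array reads 5 of the 8 genes with more than 1 probe set, and 14 probe sets in all. Tested one by one, 4 of the 14 rose and 4 fell, where 16.3% and 23.6% of all probe sets did. Both CD83 probe sets rose, Bt.19561.1.S1_at by 3.08 and 3.14 in calves 301 and 303 and Bt.3841.2.S1_at by 2.90 and 2.43. Both ICOS probe sets fell, Bt.24712.1.S1_at evenly in the calves (-0.69 and -0.66) and Bt.17957.1.A1_at less evenly (-1.39 and -0.73). The direction of CD83 and ICOS thus did not depend on the probe set.

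For CD2, CD6 and CD28 the probe sets differed. CD2 fell on Bt.10954.1.S1_at, with a change of -0.54 (adjusted p = 0.00893 over probe sets, limma), and did not pass on Bt.10954.2.S1_a_at (-0.21) or Bt.10954.2.S1_at (-0.12). CD6 rose on Bt.13087.1.S1_at, with a change of 0.46 (adjusted p = 0.0405 over probe sets, limma), and changed by 0.16 on Bt.13087.1.A1_at, which did not pass. CD28 had changes of 0.27 on Bt.48.1.S1_a_at and -0.15 on Bt.48.3.S1_a_at, neither past the threshold. A probe set that lies near background shows a compressed change, and the deposited ratios do not show which do.

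**Figure D3:**
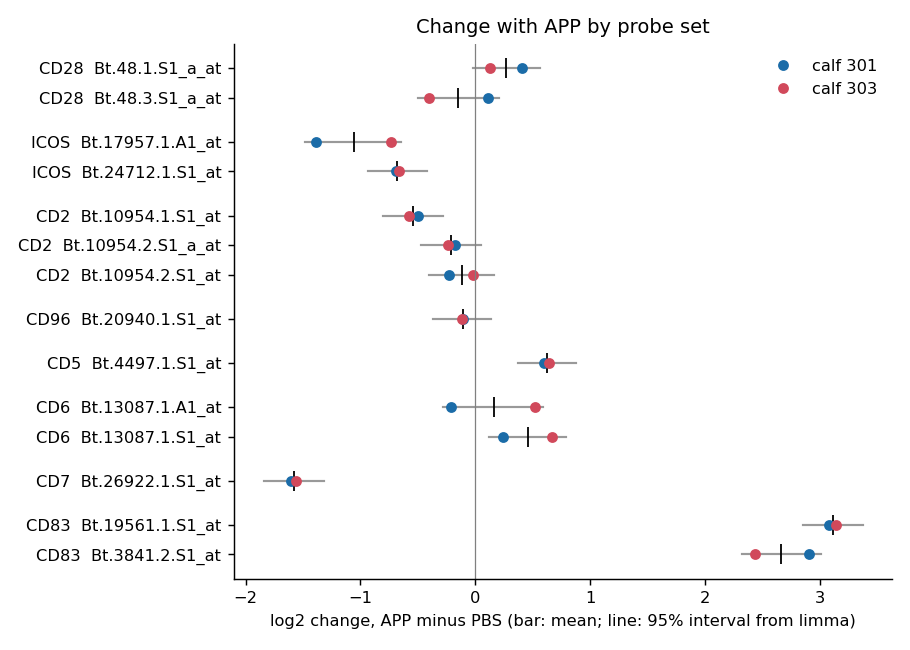
Log2 change with APP for the 14 probe sets of the 8 receptor genes, as points for calves 301 and 303, with the mean as a bar and limma's 95% interval as a line. The CD83 probe sets agree at 2.66 and 3.11 and the ICOS probe sets both lie below 0, while those of CD2, CD6 and CD28 differ in size or side.

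The difference between the animals was read with the treatment held fixed. CD96 was higher in calf 303 than in calf 301 by 1.47 with APP and 1.48 with PBS, and ranked 13 of 9155 genes by the size of the mean difference. CD2 was higher in calf 303 by 1.12 with APP and 1.09 with PBS, and ranked 34. Differences of at least 1 in that direction under both treatments were found for 0.273% of all genes. CD2 and CD96 were the 2 receptor genes with both arrays of calf 303 above both of calf 301, a pattern of 8.49% of all genes. ICOS and CD7 were also higher in calf 303, by a mean of 0.58 and 0.49, and CD83 was lower, by a mean of -0.87. CD5, CD6 and CD28 had mean differences between 0.02 and 0.11. For CD5 the difference was 0.13 with APP and 0.09 with PBS. Opposite signs lay behind the means of CD6 (0.31 and -0.27) and CD28 (-0.09 and 0.30). With 1 animal on each side, these are descriptions of 2 calves.

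The probe sets of CD2 did not show the difference to the same degree. Bt.10954.1.S1_at was higher in calf 303 by 1.88 with APP and 1.95 with PBS, Bt.10954.2.S1_a_at by a mean of 1.13, and Bt.10954.2.S1_at by 0.37 and 0.16. CD96 has 1 probe set. The ratio on it was 1.429 and 1.55 in calf 303 with APP and PBS, and 0.516 and 0.557 in calf 301.

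Further T cell genes differed between the same calves. The following were singled out after their values had been seen. CD8B, a chain of the CD8 coreceptor, was higher in calf 303 by 2.29 with APP and 2.30 with PBS, and CD8A, the other chain, by 1.26 and 1.91. LCK, the kinase that binds the CD4 and CD8 coreceptors, was higher by 1.48 and 1.54, with 0.60 and 0.99 on the least different of its 3 probe sets. SH2D1A, an adaptor of SLAM family receptors, was higher by 1.29 and 1.38. Of the T cell receptor gamma constant genes, TRGC6 was higher by 2.92 and 2.39 and TRGC4 by 2.05 and 1.66, with 0.58 and 0.09 on the least different of its 3 probe sets. Gamma constant genes resemble each other closely, so a probe set of one may also read another.

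The mean log2 ratio of 4 alpha beta T cell markers was 0.42 and 0.30 in calf 303 with APP and PBS, and -0.38 and -0.75 in calf 301. Of these 4, CD8A and CD8B passed a difference of 1 under both treatments, and the higher mean in calf 303 came mainly from them. The difference of calf 303 minus calf 301 was -0.08 with APP and -0.15 with PBS for CD4, and -0.27 and 0.12 for FOXP3. With APP, CD8A and FOXP3 rose by 1.08 and 0.35 and CD8B fell by 0.64, beside 23% and 29.7% of all genes. None of the 4 passed without the replicate block. The count of rises was 1 with arrays centred on the median, on linear ratios and after quantile normalization, and that of falls was 0 on linear ratios. TRGC4 and TRGC6 are genes of gamma delta T cells but were not on the marker list. Unlike them, none of the genes listed as gamma delta T cell markers (7 measured) differed by at least 1 under both treatments. Nor did the listed markers of B cells (6), monocytes and dendritic cells (10) or NK cells (4). The gamma delta list holds CD163L1 and WC1.3, and also CD3 complex genes and PTPRC, which alpha beta T cells carry too. In cattle CD8 is also carried by some gamma delta T cells, so CD8 transcripts do not by themselves mark alpha beta cells. The part of a different mix of T cells in the values of CD2 and CD96 was not tested.

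**Figure D4:**
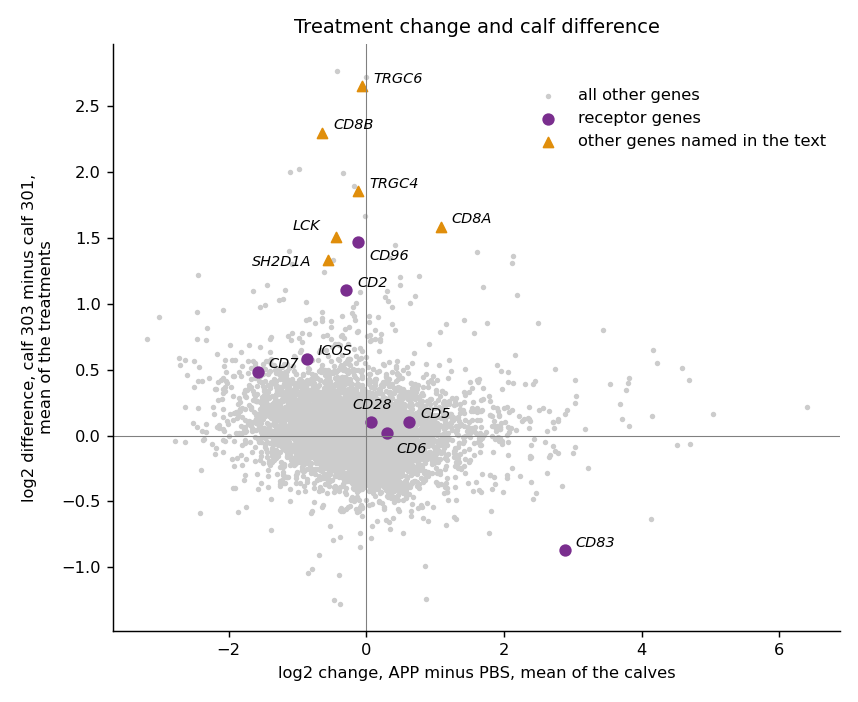
Log2 change with APP, mean of the calves (horizontal axis), against the log2 difference of calf 303 minus calf 301, mean of the treatments (vertical axis), for the 8 receptor genes, 6 other named genes and all other genes. CD96, at 1.47, and CD2 lie high on the calf axis, near LCK and SH2D1A, and close to 0 on the treatment axis.

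CD83 is also used as a marker of mature dendritic cells, and several receptors of this set are carried by B or NK cells, so markers of those cells were read over the same comparison. LAMP3, another marker of mature dendritic cells, fell by 1.34, and CD68 and CD14 rose by 2.31 and 0.46, as 2 of 10 monocyte and dendritic cell markers. Over those 10 markers the mean log2 ratio was -0.01 and 0.10 on the APP arrays of calves 301 and 303, against -0.16 and -0.07 on the PBS arrays. Of 6 B cell markers, 3 fell (BLK, CD79A and MS4A1, by 1.04, 0.80 and 0.56) and FCER2 rose by 0.75. The probe sets of MS4A1 differed, with changes of -1.08 and -0.04. Of 4 NK cell markers, KLRB1 fell by 0.40 and the others did not pass. Beside these counts, 23% of all genes rose and 29.7% fell. The call of KLRB1 was lost without the replicate block, on linear ratios and after quantile normalization. Without the block FCER2 also missed the threshold, and 1 of the 10 monocyte and dendritic cell markers rose, beside 1399 of all 9155 genes.

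Of 7 genes listed as gamma delta T cell markers, 4 fell and none rose, beside 29.7% and 23% of all genes. In unblocked fits without the PBS array of either calf, fewer of them fell. On the scale of the hybridization controls all 7 fell, as did 8182 of all 9155 genes. CD163L1, of the WC1 family, fell by 1.08, WC1.3 by 0.86, and the CD3 complex genes CD247 and CD3G by 0.53 and 0.47, while CD3E (-0.08), CD3D (-0.13) and PTPRC (-0.13) did not pass. The CD3 complex genes and PTPRC are also carried by alpha beta T cells. The mean log2 ratio of the 7 was -0.23 and -0.31 on the APP arrays of calves 301 and 303, against 0.25 and 0.15 on the PBS arrays. These falls had the same direction with APP as those of CD7, ICOS and CD2, and their part in the falls of the receptors was not tested.

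Ligands of the receptors were read next. Of 12 listed, 6 were measured, 4 rose and none fell, beside 23% and 29.7% of all genes, with a median of 0.33. ALCAM, the ligand of CD6, rose by 0.85 (0.78 in calf 301 and 0.93 in calf 303). CD80, which binds CD28, rose by 0.44 (0.62 and 0.26). Its probe sets changed by 0.56 and by 0.33, of which the latter did not pass. CD86, the other CD28 ligand, changed by -0.28 and 0.30 and did not pass. SECTM1, which binds CD7, rose by 0.34 (0.28 and 0.39), opposite in sign to CD7. CD58 rose by 0.33, with -0.15, 0.55 and 0.60 on its 3 probe sets, and CD48 changed by -0.04. Without the replicate block 2 of these 6 rose, beside 1399 of all 9155 genes. On the scale of the hybridization controls none rose and 5 fell, beside 286 and 8182 of all genes.

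Of 24 other costimulatory receptors listed, 15 were measured, 8 rose and 3 fell, beside 23% and 29.7% of all genes, with a median of 0.67. CRTAM, which marks activated cytotoxic lymphocytes, rose by 3.81 ± 0.29 (SD, n = 2 calves), TNFRSF18, also called GITR, by 2.97 and 3.04 in calves 301 and 303, and the SLAM family members SLAMF7 and SLAMF1 by 2.14 ± 0.19 and 2.07 ± 0.35. The change of CD83 lay between those of TNFRSF18 and SLAMF7. On the scale of the hybridization controls 4 of the 15 rose and 7 fell, beside 286 and 8182 of all 9155 genes. The falls as deposited, named after their values had been seen, were the tetraspanin CD9 (-1.71 ± 0.17), SLAMF6 (-1.25 ± 0.66) and LY9 (-0.59). SLAMF6 was uneven, at -1.72 in calf 301 and -0.79 in calf 303. The SLAM family was thus split, with rises of SLAMF7 and SLAMF1, falls of SLAMF6 and LY9, and CD244 (-0.31) not past the threshold.

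Of 19 other inhibitory receptors listed, 7 were measured, 2 rose and 2 fell, near the 23% and 29.7% of all genes, with a median of 0.22. VSIR, also called VISTA, rose by 1.70 ± 0.29 (SD, n = 2 calves) and PDCD1, which encodes PD-1, by 0.64 ± 0.18. CEACAM1 fell (-1.80 ± 0.16), as did SIT1, a transmembrane adaptor that damps antigen receptor signals (-0.68 ± 0.11). The change of CD5 (0.62) was close in size to that of PDCD1. On the scale of the hybridization controls 1 of the 7 rose and 5 fell, beside 286 and 8182 of all 9155 genes.

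Of 46 listed adaptors and enzymes that act downstream of the receptors, 27 were measured, 5 rose and 10 fell, with a median of -0.16. All genes tilt the same way, with 23% that rose and 29.7% that fell. PIK3R1, a regulatory subunit of the phosphoinositide 3-kinase that CD28 and ICOS recruit, fell by 2.41 (-2.59 in calf 301 and -2.23 in calf 303). Other subunits did not follow: PIK3R2 (-0.03) and PIK3R3 (-0.00) did not pass, and PIK3CA rose by 0.50. PSTPIP1, which binds the CD2 tail, fell by 1.33 (-1.33 and -1.34) and on each of its 3 probe sets. PRKCQ, a protein kinase C that acts after CD28, fell by 1.32 (-1.37 and -1.27). SH2D2A, an adaptor that binds LCK, rose by 0.84 (0.75 and 0.94). Without the replicate block 6 of the 27 fell, and on the scale of the hybridization controls 26 did. Of all 9155 genes, 2161 fell without the block and 8182 on that scale.

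**Figure D5:**
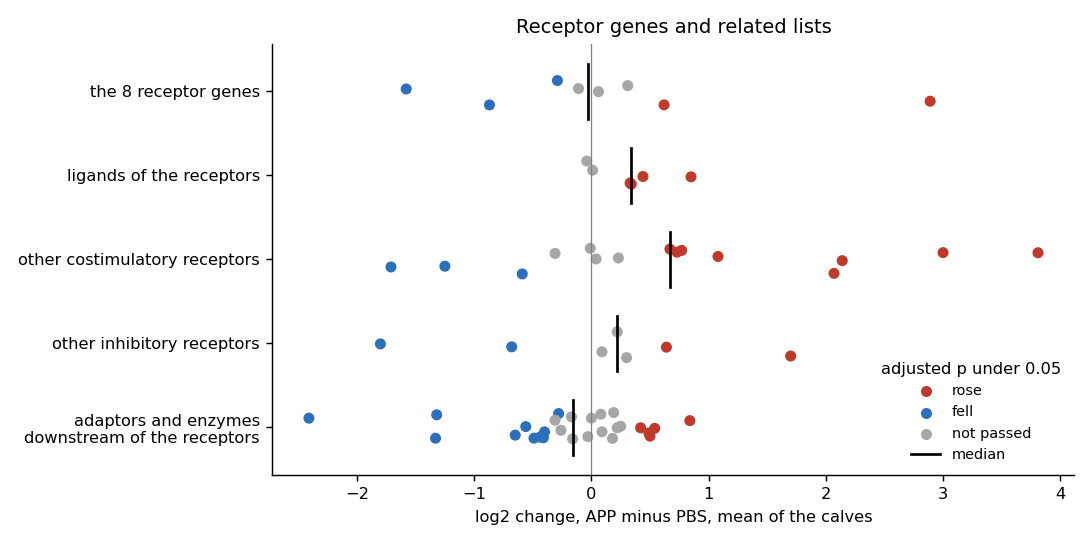
Log2 change with APP, mean of the calves, for the 8 receptor genes and 4 related lists, 1 point per gene, coloured by the call at an adjusted p of 0.05, with the median as a bar. The receptor genes spread from -1.58 to 2.89 around a median of -0.03, and the other costimulatory receptors have a median of 0.67, all on the scale as deposited.

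For each receptor gene, the genes nearest in pattern were found by Euclidean distance over the 4 log2 ratios. The nearest to CD83 were DUSP1, a MAP kinase phosphatase, and the chemokine CCL20, at distances of 0.528 and 0.611. To CD7 the nearest were GUCY1B1 and ATAD2B (0.048 and 0.083), to ICOS ATP1B1 and NREP (0.155 and 0.171), and to CD5 UTP11 and NUTF2 (0.031 and 0.048). CD96 was nearest to UCHL1 and LCK (0.260 and 0.341), and CD2 to ACTN1 and ZDHHC14 (0.180 and 0.214). CD6 was nearest to BCO1 and VWCE (0.052 and 0.060), and CD28 to GDNF and NGDN (0.032 and 0.088). A short distance is easily met by a gene with little change, so these distances do not compare across the receptors, and 4 arrays from 2 calves leave few ways for a pattern to differ.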

How the data were processed

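Per the submitters' processing notes the authors used RMA, with version and options not stated. The deposited values are linear ratios of each probe set to its own median over the 4 arrays, as found from the values. They were log2 transformed here and not normalized further. After 112 control probe sets were left out, 24016 remained, of which 13292 had 1 gene symbol in the platform annotation, updated by identifier through a RefSeq table (ARS-UCD2.0, used for names and gene order). Probe sets were averaged over 9155 genes. Treatment was tested with limma 3.58.1 (R 4.3.3, lmFit and eBayes, two-sided) with the calf as a block, since, by their titles, the APP and PBS arrays come from the same 2 calves (across genes, the difference between the calves in APP correlated with that in PBS at r = 0.509). Residual degrees of freedom were 1 and prior degrees of freedom 5.86, and Benjamini-Hochberg adjustment ran over all genes. An exact permutation test of 2 arrays against 2 cannot go below p = 0.33 and was not used. Arrays have no depth, and the small number of them limits the precision.

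Array titles gave the calf and treatment, and the sources used here name no scan batch. The receptor genes and lists were chosen with earlier results of these data known. Named are all 8 receptor genes, all measured ligands, up to 4 members of each other receptor and downstream list with the largest changes past the threshold and the same sign in both calves, and the 2 genes nearest to each receptor gene. Members of the marker lists that changed were also named, and members that did not pass were picked after their values were seen. Further members of the receptor and downstream lists were also picked after their values were seen. List genes were matched by symbol only. A further gene of the list from which the receptors came is not reported here.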

Additional observations from a re-analysis of the deposited data

Results flagged for a closer look

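The hybridization controls bioB, bioC and bioD, which no comparison used, were higher with APP. The mean log2 ratio of their 14 probe sets was 0.279 and 0.550 on the APP arrays of calves 301 and 303, against -0.482 and -0.391 on the PBS arrays, a mean change of 0.85. Scaling to them lowers every gene by about that amount, and the values of the receptor genes that change side are given with the processing alternatives.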

How the results depend on the processing

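CD83 rose and CD7 fell under all of the alternatives tried that give each a value. On the log2 scale CD83 lay between 2.04 and 3.37 and CD7 between -2.43 and -1.32. The counts of receptor genes were 2 rises and 3 falls. They were 1 and 6 when scaled to the hybridization controls and 1 and 1 at 2-fold or more in both calves. Without the replicate block 1 receptor gene fell. In unblocked fits without 1 array, 1 to 2 rose and 1 to 2 fell, and the lower count of rises came without the PBS array of calf 301, where CD5 just missed the threshold (0.58, adjusted p = 0.054, limma). Scaled to the hybridization controls, CD28 stood at -0.79, CD5 at -0.23, CD6 at -0.55 and CD96 at -0.97, beside a median of -0.84 for all genes. In fits without 1 array the range was -0.09 to 0.21 for CD28, -0.85 to 0.27 for CD2 and -0.85 to 0.62 for CD96, so that the sign turned for CD28 without the PBS array of calf 301, and for CD2 and CD96 without the APP array of calf 301 or the PBS array of calf 303. CD96 stood at 0.13 after quantile normalization. Over all genes, 2104 rose and 2717 fell. These counts were 286 and 8182 scaled to the hybridization controls and 320 and 576 at 2-fold in both calves. Without the block 1399 rose and 2161 fell. In fits without 1 array, 745 to 1292 rose and 1305 to 2012 fell. Fits without 1 array had no block and left 1 calf in a treatment, so their changes also hold part of the difference between the calves. The causes of the other moves were not tested. A filter on low values was not run, since the ratios hold no level.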
